A study of Mus musculus with 4 samples.

Results

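Glycolysis and the transcriptional response to low oxygen were followed through 37 genes, chosen by symbol: 20 of glucose uptake, glycolysis and pyruvate use (the glycolysis members), and 17 that are known targets of hypoxia signalling (the hypoxia members). All 37 symbols were found among 54446 rows with a mouse Ensembl ID. Aldoa had 2 rows, so that 38 rows carried a member symbol. All 37 members passed the low-count filter and were among the 21916 genes tested. RNA had been sequenced in 4 libraries of epithelial cells cultured from the tongue of C57BL/6 mice in RPMI-1640 with 10% fetal bovine serum. The 2 control libraries, Control 1 and 2, were wild type, and the 2 others, numbered 3 and 4, carried the label of a systemic knockout of Otub2, which encodes a deubiquitinase of the OTU family. The age of the mice, the deleted part of the gene and the origin of the libraries within a group (1 or several mice or cultures) were not given in the sources used here. P-values therefore reflect only how much these samples vary, and that variation may be technical.

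Glycolysis splits glucose into pyruvate in the cytosol, and the pyruvate is either reduced to lactate and exported or oxidised in mitochondria. Under low oxygen the prolyl hydroxylases that mark hypoxia-inducible factor (HIF) alpha subunits for destruction lose activity, and the stabilised factor pairs with Arnt and switches on genes for glucose uptake, glycolysis, lactate export, blood vessel growth, pH control and collagen hydroxylation. Keratinocytes in culture use glycolysis heavily, and many of the same genes are also driven by growth signals.

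Total counts ran from 11882900 to 23017183 per library. Otub2 itself had 27.2 and 26.6 CPM (counts relative to library size, scaled by the trimmed mean of M-values, TMM) in Control 1 and 2, 18.8 CPM in knockout library 3 and 23.7 CPM in 4 (log2 fold change -0.34, SE 0.30, edgeR adjusted p = 0.485). Since the deleted part was not given, these values do not check the labels. The 11 keratinocyte markers examined were detected in every library and summed to 7.67% and 7.16% of gene counts in the controls, 2.16% in library 3 and 5.02% in library 4. Library 3 stood apart: 12 salivary gland markers took 25.4% of its gene counts and 10 cardiac muscle markers 1.28%, against at most 0.00313% and 0.00704% in the other 3 libraries. Most of the gland counts of library 3 came from Mucl2 (5462635 counts) and Prol1 (294734), whereas 4 of the 12 gland markers were at 0 there, against 2 or 3 in each other library, and Muc19 had 53 counts, against 51, 32 and 32 in Control 1, Control 2 and library 4. Summed levels of other lists were also highest in library 3: 1016 CPM against 63.6 to 149 CPM for smooth muscle and pericyte, 430.3 against 30.9 to 89.5 CPM for skeletal muscle, 280.3 against 72.1 to 84.5 CPM for endothelium, 197 against 20.2 to 57.2 CPM for erythroid cells and 171 against 72.4 to 90.9 CPM for macrophages, with no marker of these 5 lists at 0. Des alone gave 638 of the 1016 CPM of the smooth muscle and pericyte list in library 3. Of the 6 markers of that list that were tested, 1, Cspg4, was higher in library 4 than in library 3 (53.8 against 20.1 CPM). The skeletal muscle sum of library 3 came mostly from Ckm (287 CPM) and Acta1 (128 CPM). As a set the skeletal muscle markers were not raised there, with a median log2 difference from the controls of -0.71. Library 4 was highest in 8 markers of cycling cells, at 0.155% of gene counts, against 0.0369%, 0.0503% and 0.0224% in Control 1, Control 2 and library 3. Fewer cells of a type and less RNA per cell cannot be told apart in such bulk samples. The part of these markers in the results below was not tested, and results that rest on library 3 or library 4 are given for each library.

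Stretches of 250 bases before the transcription start are shown for 7 members on which the results turn, because HIF recognises a short core at many of its target promoters. The letters searched were ACGTG and GCGTG on either strand; CACGTG holds ACGTG on both strands, at overlapping positions. Capitals mark these cores and all sequences run 5′ to 3′ along the gene. They were taken from RefSeq windows (build GRCm38.p6) at P4ha1 chr10:59323046-59323295 (plus strand), Bnip3 chr7:138909507-138909756 (minus strand), Pdk1 chr2:71872974-71873223 (plus strand), Aldoa chr7:126799255-126799504 (minus strand), Slc16a3 chr11:120948817-120949066 (plus strand), Ldha chr7:46845554-46845803 (plus strand), Gpi1 chr7:34230337-34230586 (minus strand). P4ha1, Bnip3, Pdk1 and Aldoa lay above the controls under at least 5 of the 6 library scalings compared, Slc16a3 and Ldha show how the libraries labelled Otub2 knockout differed from each other, and Gpi1 is a member whose window held neither core.
P4ha1: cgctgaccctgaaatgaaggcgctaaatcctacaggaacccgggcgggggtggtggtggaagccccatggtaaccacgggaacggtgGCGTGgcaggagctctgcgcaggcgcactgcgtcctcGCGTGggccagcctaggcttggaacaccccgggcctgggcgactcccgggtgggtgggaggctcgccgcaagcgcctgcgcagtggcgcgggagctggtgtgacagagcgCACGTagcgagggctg
Bnip3: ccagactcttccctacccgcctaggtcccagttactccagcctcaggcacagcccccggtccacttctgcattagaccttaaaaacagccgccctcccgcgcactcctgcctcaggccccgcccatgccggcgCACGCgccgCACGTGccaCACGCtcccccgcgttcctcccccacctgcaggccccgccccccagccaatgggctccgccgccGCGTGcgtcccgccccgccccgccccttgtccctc
Pdk1: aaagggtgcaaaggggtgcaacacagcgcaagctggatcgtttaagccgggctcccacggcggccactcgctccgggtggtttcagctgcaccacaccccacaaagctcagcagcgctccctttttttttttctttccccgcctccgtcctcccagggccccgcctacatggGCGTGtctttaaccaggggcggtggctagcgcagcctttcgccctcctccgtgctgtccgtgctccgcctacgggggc
Aldoa: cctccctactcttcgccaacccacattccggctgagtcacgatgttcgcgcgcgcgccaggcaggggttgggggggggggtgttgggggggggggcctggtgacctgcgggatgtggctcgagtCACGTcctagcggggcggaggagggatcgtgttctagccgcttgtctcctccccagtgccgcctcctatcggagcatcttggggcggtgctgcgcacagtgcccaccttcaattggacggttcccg
Slc16a3: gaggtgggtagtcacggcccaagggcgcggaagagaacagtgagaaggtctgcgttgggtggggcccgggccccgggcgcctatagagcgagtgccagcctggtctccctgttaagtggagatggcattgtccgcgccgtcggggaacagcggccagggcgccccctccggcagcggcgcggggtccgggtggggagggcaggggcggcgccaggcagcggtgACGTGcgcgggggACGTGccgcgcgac
Ldha: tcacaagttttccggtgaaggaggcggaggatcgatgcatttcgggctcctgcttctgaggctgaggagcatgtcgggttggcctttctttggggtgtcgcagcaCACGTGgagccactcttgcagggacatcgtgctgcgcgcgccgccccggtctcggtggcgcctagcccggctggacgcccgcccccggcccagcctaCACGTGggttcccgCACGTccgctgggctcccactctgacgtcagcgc
Gpi1: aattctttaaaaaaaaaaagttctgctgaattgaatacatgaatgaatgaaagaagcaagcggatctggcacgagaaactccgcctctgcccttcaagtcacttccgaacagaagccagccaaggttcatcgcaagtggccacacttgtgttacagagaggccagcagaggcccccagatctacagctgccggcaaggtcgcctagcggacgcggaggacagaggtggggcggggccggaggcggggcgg
Of the 37 members, 33 were found in the RefSeq table, with 51 windows of 250 bases before and 50 bases after the start. Missing entries were Angptl4, Ndrg1, Bhlhe40 and Plod2. At least 1 core was present in 39 of the 51 windows (76.5%), against 43.8% of all 32851 windows in the table and 55.6% of the 17900 windows of genes tested here. Counted per gene, 30 of 33 members held a core (90.9%), against 46.7% of all genes in the table and 60.6% of the genes tested. The 13 hypoxia members with a window all held one, and the 3 members without were the glycolysis genes Eno2, Gpi1 and Tpi1. Bnip3 had 5 core matches in the stretch shown, Ldha 5, P4ha1 3, Slc16a3 2, and Pdk1 and Aldoa 1 each. Such a match is a description of the letters and not of a bound site, and many members are textbook HIF targets, so that a high share among them is part of what they were chosen for.

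Across all 4 libraries the members tended to be more abundant in the libraries labelled Otub2 knockout, but none passed the test. By edgeR's quasi-likelihood test, adjusted over 21916 genes, 0 of 37 members were called higher and 0 lower. The background was the same: 0 genes (0%) were called in either direction, with a smallest adjusted p of 0.162, while an unadjusted p under 0.05 was reached by 2064 higher and 3325 lower genes. Of the 11753 genes with a mean of at least 5 CPM, 1836 were higher and 430 lower at that unadjusted level. Among the members 14 were higher and 0 lower at that level, and their adjusted p ran from 0.166 to 0.983. DESeq2 called 780 genes higher (4.89% of the 15967 to which it gave an adjusted p) and 258 lower (1.62%), among them 5 members, all higher: P4ha1 (adjusted p = 0.00831), Angptl4 (0.0285), Pfkm (0.0302), Slc16a3 (0.0393) and Bnip3 (0.0453). Of the 11753 genes of at least 5 CPM, DESeq2 called 719 higher and 150 lower. Over all alternative settings the adjusted p of each of the 5 members reached 0.832. Their smallest values came from fits with a single library labelled Otub2 knockout and are not given.

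In 25 of the 37 members (67.6%) both libraries labelled Otub2 knockout lay above both controls on the TMM scale, and in 1, Higd1a, both lay below. The same held for 42.8% (above) and 11.9% (below) of 11753 genes with a mean of at least 5 CPM. The median log2 fold change was 0.80 over the members, 0.70 over the 20 glycolysis members and 0.92 over the 17 hypoxia members, against 0.41 over genes of at least 5 CPM and 0.09 over all genes tested. These shares rest on the TMM scale. With upper-quartile scaling 12 members lay above (32.4%) and 5 below (13.5%), against 16% and 30.8% of genes of at least 5 CPM. With plain library size 4 lay above (10.8%) and 1 below (2.70%), against 13.1% and 21% of those genes.

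**Figure D1:**
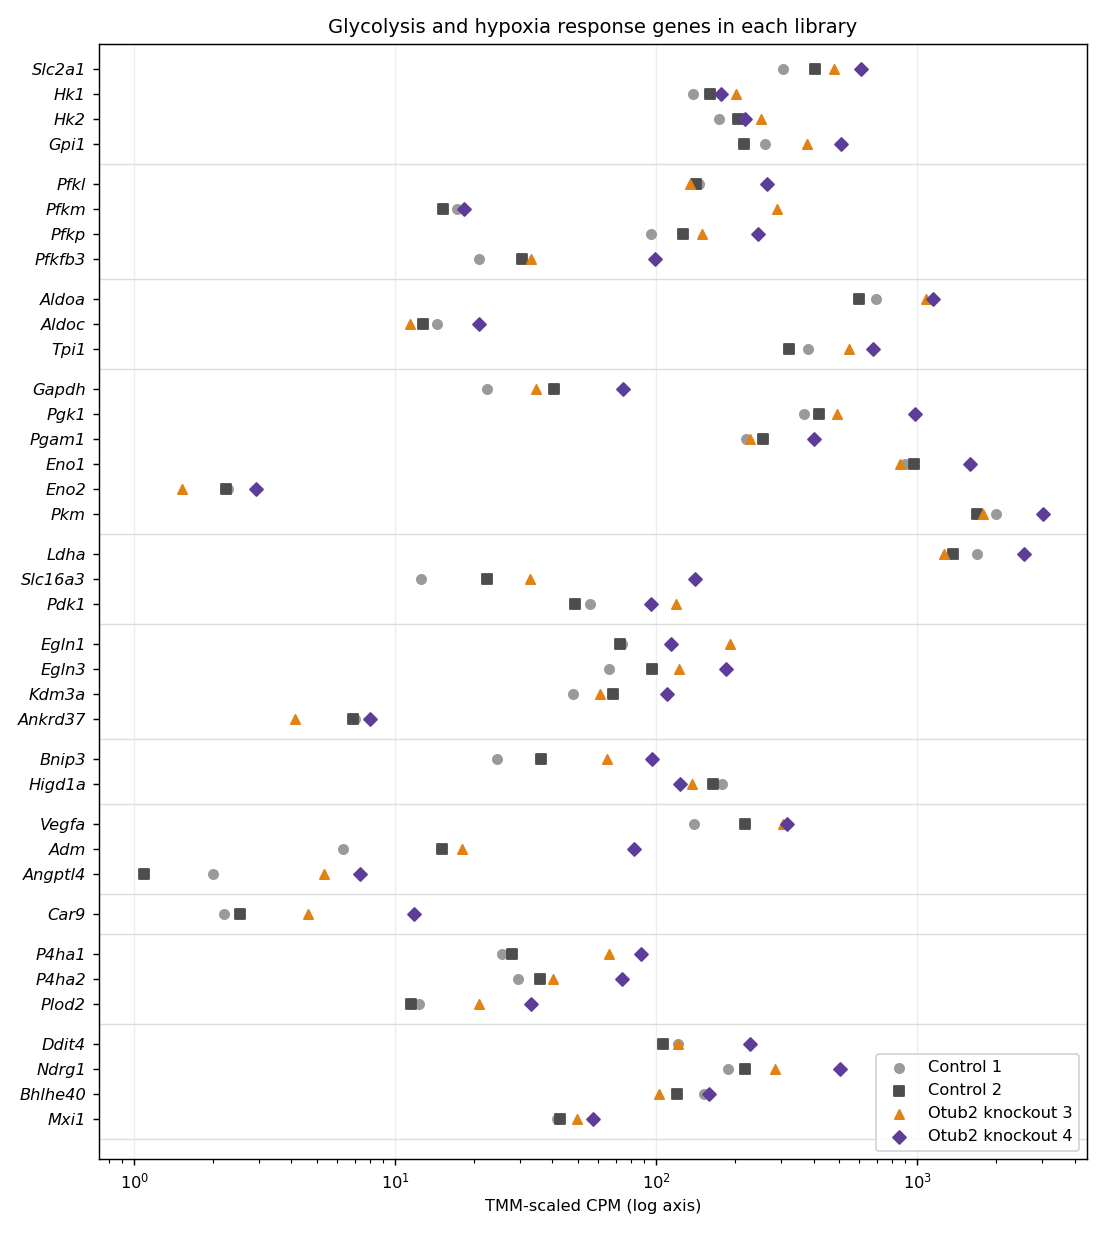
Level of each of the 37 members (rows, grouped by role) in each library, as TMM-scaled CPM on a log axis; each symbol is 1 library. Purple diamonds (library 4) lie to the right of both control symbols in most rows, orange triangles (library 3) less regularly, and Pfkm is at 289 CPM in library 3 against 15.3 to 18.3 CPM elsewhere.

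At the entry of glucose into the cell all 4 members lay above both controls on the TMM scale. So did 42.8% of genes of at least 5 CPM. Of the 6 scalings, Gpi1 lay above both controls under 4, and Slc2a1, Hk1 and Hk2 under 2. Slc2a1, the main glucose transporter of epithelia, was at 305 and 404 CPM in control libraries and at 480.0 and 610.1 CPM in libraries 3 and 4 (log2 fold change 0.62, SE 0.32, edgeR adjusted p = 0.275, with 2 libraries in each group here and throughout). The gap between the controls, 99 CPM, was larger than that between Control 2 and library 3. Hexokinases trap glucose in the cell by phosphorylation. Hk1 was at 138 and 160.3 CPM in control libraries against 202 and 177 CPM, and Hk2, the inducible form, at 173 and 205 CPM against 251 and 219 CPM. Both hexokinases were highest in library 3, and their log2 fold changes, 0.34 and 0.31, exceeded their SEs of 0.26 and 0.27 by little. Gpi1, which converts glucose 6-phosphate into fructose 6-phosphate and whose window above held no core, was at 261 and 217 CPM in control libraries and at 376 and 509 CPM in libraries 3 and 4 (log2 change 0.89, SE 0.31, adjusted p = 0.185).

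Phosphofructokinase catalyses the committed step of glycolysis, and its 3 isoenzyme genes differed in pattern. Pfkm, the muscle form, was at 17.2 and 15.3 CPM in control libraries, 289 CPM in library 3 and 18.3 CPM in library 4. Its log2 fold change of 3.24 (SE 1.23, edgeR adjusted p = 0.197) thus came from library 3. Without that library the log2 fold change was 0.20, and without library 4 it was 4.15. Pfkl, the liver form, was at 145 and 142 CPM against 134 and 266 CPM, so that library 3 lay below both controls. Pfkp, the platelet form, was at 95.3 and 126 CPM against 149.7 and 244 CPM. Pfkfb3 makes fructose 2,6-bisphosphate, the strongest allosteric activator of the enzyme, and was at 20.9 and 30.5 CPM against 33.1 and 98.7 CPM (log2 change 1.36, SE 0.57, adjusted p = 0.216). In library 3 it was close to Control 2, and only library 4 was clear of both controls.

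Aldolase cuts the 6-carbon sugar and triose phosphate isomerase interconverts the products. Aldoa was at 695 and 597 CPM in control libraries and at 1076 and 1148 CPM in libraries 3 and 4, with similar values within each group (log2 fold change 0.78, SE 0.31, edgeR adjusted p = 0.206). A second row with the same symbol held 18 to 54 counts per library. Tpi1 was at 382 and 321 CPM against 546 and 679 CPM (log2 fold change 0.80, SE 0.31). Aldoc, the minor aldolase here, was at 14.4 and 12.8 CPM against 11.4 and 20.9 CPM, on both sides of the controls.

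Of the 6 genes of lower glycolysis, 1, Pgk1, lay above both controls in both libraries on the TMM scale. That was 16.7%, against 42.8% of genes of at least 5 CPM. Pgk1, phosphoglycerate kinase, was at 369 and 418 CPM in control libraries and at 493 and 981 CPM in libraries 3 and 4 (log2 change 0.90, SE 0.42, edgeR adjusted p = 0.245). Pgam1, phosphoglycerate mutase, was at 221 and 256 CPM against 229 and 401 CPM. Eno1, enolase, was at 900.1 and 971 CPM against 859 and 1585 CPM. In each of these 3 genes library 4 was far above the controls, whereas library 3 was close to them. Pkm, pyruvate kinase, had 2008 and 1699 CPM in control libraries against 1775 and 3014 CPM, and Gapdh 22.4 and 40.4 CPM against 34.6 and 74.4 CPM. Eno2, the neuronal enolase, was low, with 22 to 61 counts (2.28 and 2.24 CPM against 1.52 and 2.92 CPM). On the log2 scale the median difference of the 6 genes was -0.06 for library 3 and 0.76 for library 4.

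Pyruvate can be turned into lactate, exported or kept out of mitochondria. Ldha, the lactate dehydrogenase subunit of fast glycolysis, was at 1684 and 1365 CPM in control libraries, 1266 CPM in library 3 and 2567 CPM in library 4 (log2 fold change 0.33, SE 0.48, edgeR adjusted p = 0.666). Library 3 had the lowest and library 4 the highest Ldha level, and its window shown above held 5 core matches. Slc16a3, the exporter MCT4 of lactate-producing cells, was at 12.6 and 22.4 CPM in control libraries and at 32.7 and 141 CPM in libraries 3 and 4 (log2 change 2.31, SE 0.75, adjusted p = 0.177), with a wider gap between libraries 3 and 4 than any member other than Pfkm and Adm. Pdk1 phosphorylates and so inactivates pyruvate dehydrogenase. It was at 55.8 and 48.9 CPM against 118 and 95.1 CPM (log2 change 1.03, SE 0.26, adjusted p = 0.166), with both libraries well apart from both controls.

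Among the genes of oxygen sensing, Egln1 encodes PHD2, the main HIF prolyl hydroxylase and itself a HIF target. Egln1 was at 73.7 and 72.8 CPM in control libraries and at 192 and 114 CPM in libraries 3 and 4 (log2 fold change 1.06, SE 0.34, edgeR adjusted p = 0.173). Egln3, a strongly inducible hydroxylase of the same family, was at 66.1 and 96.4 CPM against 122 and 185 CPM (log2 change 0.92, SE 0.35, adjusted p = 0.197). Egln1 was higher in library 3 and Egln3 in library 4, and both genes were clear of both controls on the TMM scale. Egln1 lay above both controls under all 6 scalings, and Egln3 under 2. Kdm3a, a histone H3 lysine demethylase, was at 47.9 and 68.0 CPM against 60.6 and 109.7 CPM. Ankrd37, an ankyrin repeat protein and HIF target in other cells, was at 6.99 and 6.88 CPM against 4.14 and 7.99 CPM. In both genes library 3 did not exceed the higher control.

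The 2 mitochondrial members differed in direction. Bnip3, a receptor for mitophagy, was at 24.6 and 36.3 CPM in control libraries and at 64.5 and 96.4 CPM in libraries 3 and 4 (log2 fold change 1.40, SE 0.35, edgeR adjusted p = 0.166). Higd1a, which binds and tunes respiratory complexes, was at 178 and 164 CPM against 137 and 123 CPM (log2 change -0.40, SE 0.25, adjusted p = 0.339). Higd1a was the single member to lie below both controls on the TMM scale, and it lay below them under each of the 6 scalings.

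All 3 secreted members lay above both controls on the TMM scale, against 42.8% of genes of at least 5 CPM. Of the 6 scalings, Angptl4 did so under 6, Vegfa under 4 and Adm under 2. Vegfa, the main angiogenic growth factor, was at 139 and 219 CPM in control libraries and at 307 and 316 CPM in libraries 3 and 4 (log2 fold change 0.80, SE 0.33, edgeR adjusted p = 0.209). Adm, the vasodilator peptide adrenomedullin, was at 6.30 and 15.1 CPM against 17.9 and 81.8 CPM (log2 change 2.23, SE 0.84, adjusted p = 0.196). Endothelial markers, whose summed levels are given above, were highest in library 3 and their part in the Vegfa level was not tested. The controls themselves differed by 1.24 on the log2 scale in Adm, and library 3 was close to Control 2. Angptl4, an inhibitor of lipoprotein lipase, was at 2.01 and 1.09 CPM against 5.32 and 7.32 CPM on 15 to 153 counts (2.03, SE 0.56, adjusted p = 0.166). Car9 encodes carbonic anhydrase 9, which acidifies the space outside the cell. It was at 2.21 and 2.53 CPM against 4.63 and 11.8 CPM on 32 to 246 counts (1.79, SE 0.61, adjusted p = 0.182), with both libraries above both controls.

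All 3 collagen-modifying enzymes lay above both controls on the TMM scale, against 42.8% of genes of at least 5 CPM. Of the 6 scalings, P4ha1 did so under 6, Plod2 under 5 and P4ha2 under 2. P4ha1, the catalytic subunit of collagen prolyl 4-hydroxylase, was at 25.6 and 27.9 CPM in control libraries and at 66.1 and 87.6 CPM in libraries 3 and 4 (log2 fold change 1.52, 95% interval 0.82 to 2.23, SE 0.28, edgeR adjusted p = 0.166). This was the smallest unadjusted p among the members (0.00242), and the gap between groups was many times that between the controls. P4ha2, its paralog, was at 29.6 and 35.8 CPM against 40.2 and 73.9 CPM (log2 fold change 0.80, SE 0.37). Plod2, a lysyl hydroxylase that stabilises collagen crosslinks, was at 12.4 and 11.5 CPM against 20.8 and 33.1 CPM (log2 change 1.17, SE 0.37, adjusted p = 0.173). In each of the 3 library 4 was the highest. The 8 fibroblast markers, whose cells are the usual makers of collagen, summed to 149 and 178 CPM in control libraries, 659 CPM in library 3 and 396 CPM in library 4, with 5 of 8 above both controls and none at 0. In library 4 most of the sum came from the collagens Col1a1, Col1a2 and Col3a1 (162, 83.4 and 89.0 CPM). Dcn (10.9 CPM) and Pdgfra (6.98 CPM) lay below both controls there, and Thy1 (8.47 CPM) lay between them. The part of these markers, and of the smooth muscle and pericyte markers given above, in the collagen-modifying genes was not tested.

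Members of stress signalling and transcription had a median log2 fold change of 0.48. Ddit4, an inhibitor of mTORC1, was at 121 and 106 CPM in control libraries and at 121 and 228 CPM in libraries 3 and 4. Ndrg1, which responds to stress and differentiation, was at 187 and 218 CPM against 286 and 505 CPM (log2 fold change 0.96, SE 0.37, edgeR adjusted p = 0.201). On the TMM scale Ndrg1 was apart from the controls in both libraries, while Ddit4 was so in library 4. Ndrg1 lay above both controls under 2 of the 6 scalings. Mxi1, a MYC antagonist, was at 41.6 and 42.6 CPM against 49.6 and 57.1 CPM. Bhlhe40, a repressor of the circadian and hypoxia response, was at 152 and 119.5 CPM against 103 and 158 CPM, with library 3 below and library 4 above both controls.

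The libraries labelled Otub2 knockout were then set apart, since their means hide different patterns. Over the members, the median log2 difference from Control 1 and 2 reached 0.44 for library 3 and 0.89 for library 4, and library 4 exceeded library 3 in 31 of 37 members (83.8%), against 54.2% of genes of at least 5 CPM. With library 4 alone against the controls, edgeR called 28 members higher and 0 lower, on a background of 18.8% of 23181 genes called higher and 22% lower. Among genes of at least 5 CPM that background was 32.2% higher and 8.91% lower. With library 3 alone it called 14 members higher and 0 lower, on a background of 22.4% of 23380 genes higher and 12.7% lower. Among genes of at least 5 CPM it was 31.5% higher and 9.54% lower, against 14 of 37 members higher. A single library is here assumed to vary as the controls do, so these counts describe 2 libraries and not the knockout. Glycolysis members summed to 0.893% and 0.844% of gene counts in the controls, 0.533% in library 3 and 1.42% in library 4. With salivary gland and cardiac markers left out of the total, the share in library 3 was 0.727%, still below both controls. Higher levels in library 4 went together with the cycling-cell markers given above, whose part in them was not tested.

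**Figure D2:**
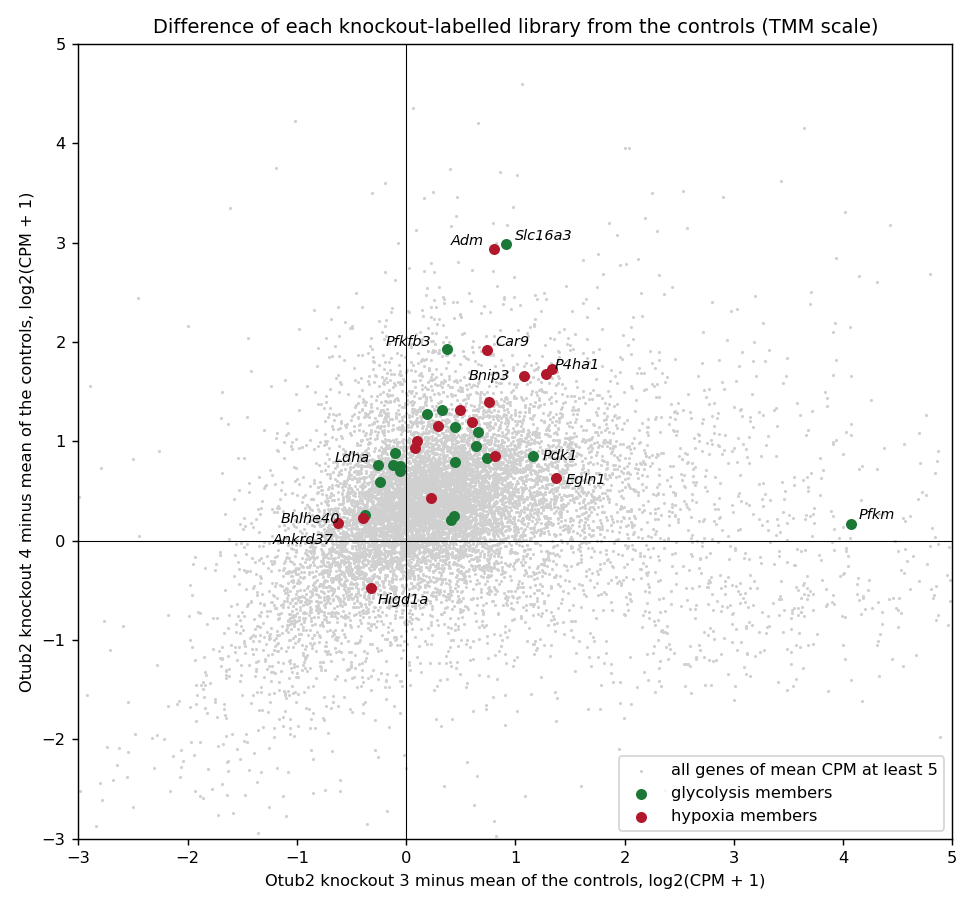
Log2 difference of library 3 (horizontal) and library 4 (vertical) from the mean of the controls, as log2(CPM + 1) on the TMM scale. Each dot is a gene: grey, 11630 genes of at least 5 CPM (123 more fall outside the axes); green, glycolysis members; red, hypoxia members. Most members lie to the right of and above 0, Adm and Slc16a3 are highest in library 4, and Pfkm is the member farthest to the right.

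Shares of isoenzymes within a library do not depend on the scaling between libraries and were taken from the deposited FPKM, which are per length. They showed a muscle-type pattern in library 3. Pfkm made up 73.5% of phosphofructokinase FPKM there, against 15.2% and 12.9% in the controls and 8.62% in library 4. Eno3, the muscle enolase, was 60.9% of enolase FPKM in library 3 and at most 2.44% elsewhere. Pgam2, the muscle mutase, was 55.4% of its pair in library 3 and at most 2.47% elsewhere. Ldhb, the heart-type subunit, was 44.8% of lactate dehydrogenase FPKM in library 3 and at most 1.30% elsewhere. The kinases Pdk2 and Pdk4 held 43.2% and 28.4% of their family there, and Pdk1 held 18.5% there, against 38.2% and 34.3% in the controls and 41.4% in library 4. Cardiac muscle markers such as Myh6 (134463 counts in library 3, and 53, 60 and 9 in Control 1, Control 2 and library 4) moved with these isoenzymes. All 10 cardiac markers were detected in every library, and their part in the isoenzyme shares was not tested.

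Some shares differed from both controls in the same direction in libraries 3 and 4. Of 44 isoenzymes in 14 families, 5 had a higher share and 11 a lower share in both libraries than in both controls. Shares of a family add up to the whole, so these counts are not independent. No such count was made over other genes, so they are not read as a result about these families. Bnip3 and P4ha1 were among the 5 with a higher share. Bnip3 held 19.5% and 25.3% of the Bnip3 and Bnip3l total in the controls and 46.4% and 42.7% in libraries 3 and 4. P4ha1 held 54.4% and 51.6% of prolyl 4-hydroxylase alpha subunits in the controls and 70.1% and 63.2% in the others. The ranges of the groups did not overlap for either gene, in 2 libraries of different makeup. Slc16a3 held 9.55% and 17.8% of lactate transporter FPKM in the controls, 13.7% in library 3 and 42.0% in library 4, so library 3 lay between the controls. An exact permutation test of 2 against 2 libraries cannot go below p = 0.333, and none was run on these shares.

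**Figure D3:**
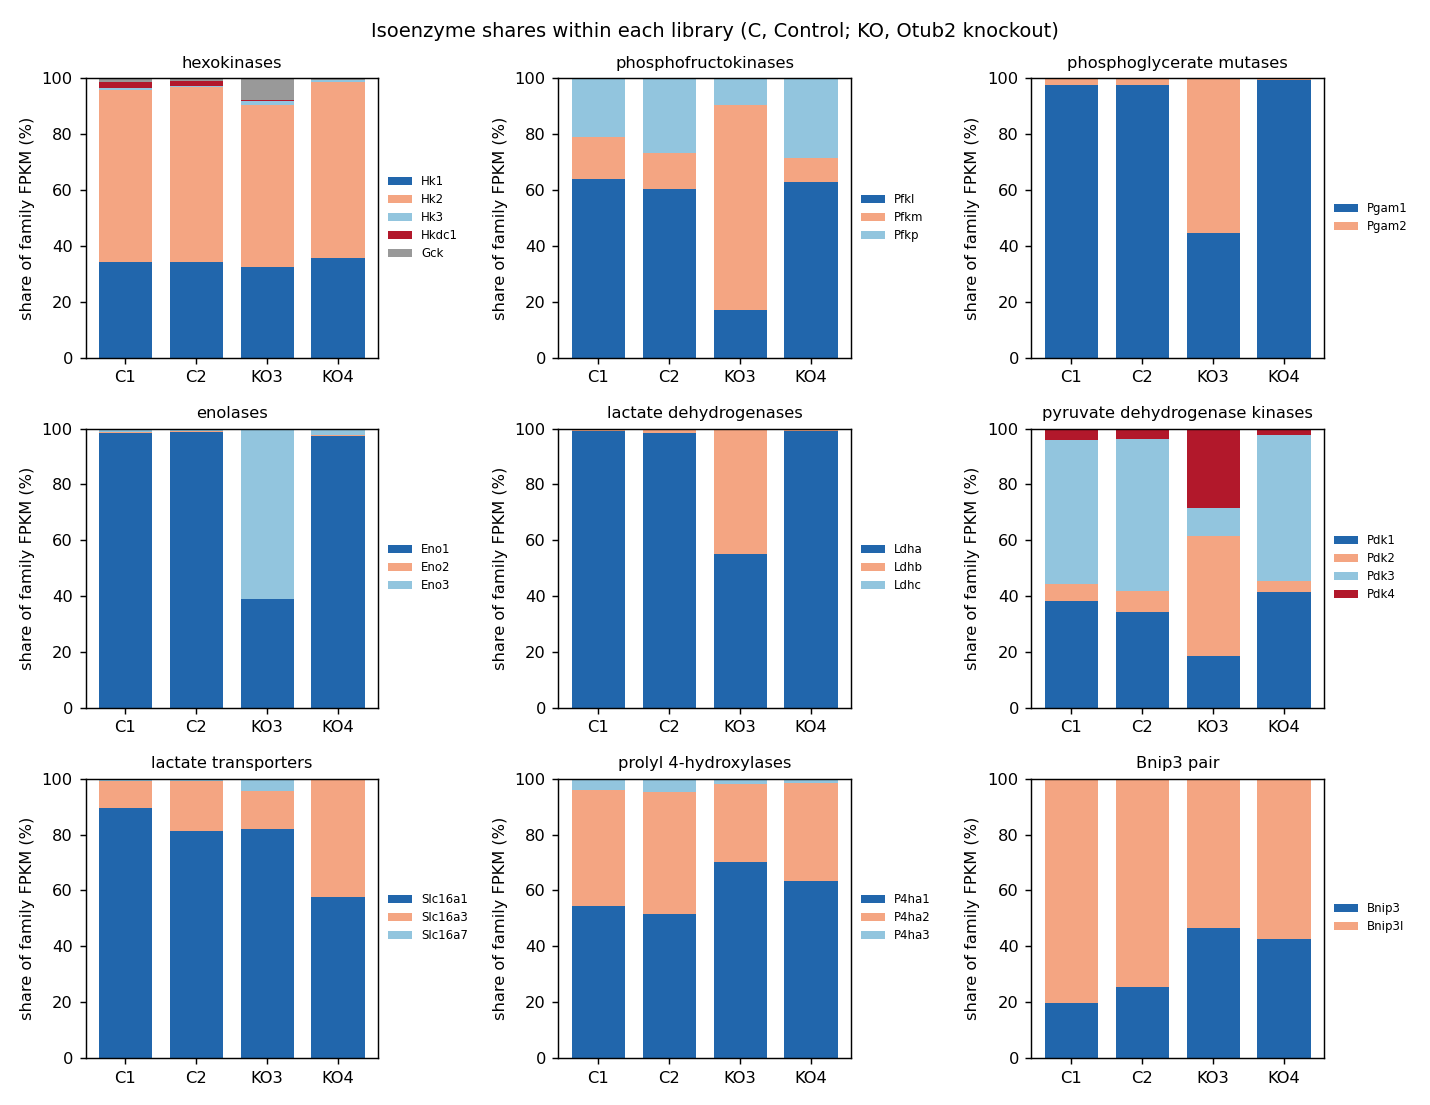
Share of each isoenzyme (percent of the family's summed FPKM, stacked bars from 0 to 100) in Control 1 and 2 (C1, C2) and the libraries labelled Otub2 knockout 3 and 4 (KO3, KO4), for 9 families. Pfkm, Pgam2, Eno3, Ldhb, Pdk2 and Pdk4 take large shares in library 3, while Bnip3 and P4ha1 have larger shares in both libraries 3 and 4 than in the controls.

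How many members lay above the controls depended on the scaling, most of all for library 3. The median over the members stayed positive under all 6 scalings, at 0.34 to 0.86, while that over genes of at least 5 CPM ran from -0.06 to 0.46. For library 4 the member median was 0.44 to 0.98. For library 3 it was 0.44 with TMM, 0.45 with RLE size factors, -0.02 with library size after removing gland and heart markers, -0.05 with upper-quartile scaling, -0.20 with each library centred on its median and -0.46 with plain library size. Members above both controls numbered 25, 25, 12, 12, 9 and 4 in that order, or 67.6%, 67.6%, 32.4%, 32.4%, 24.3% and 10.8% of 37. Over genes of at least 5 CPM the shares above were 42.8%, 45.8%, 23.8%, 16%, 19.1% and 13.1%, so that the share was lower under the same scalings for members and for all these genes, and the members' share lay under the other with plain library size. The shares of those genes below both controls were 11.9%, 10.5%, 18.1%, 30.8%, 17.7% and 21%, and 1 member lay below in each case except 5 with upper-quartile scaling. Pdk1, Egln1, Angptl4 and P4ha1 lay above both controls under all 6 scalings, and Bnip3, Car9, Plod2 and Aldoa under 5. In 10 of the 37 members the sign of the log2 fold change differed between scalings.

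**Figure D4:**
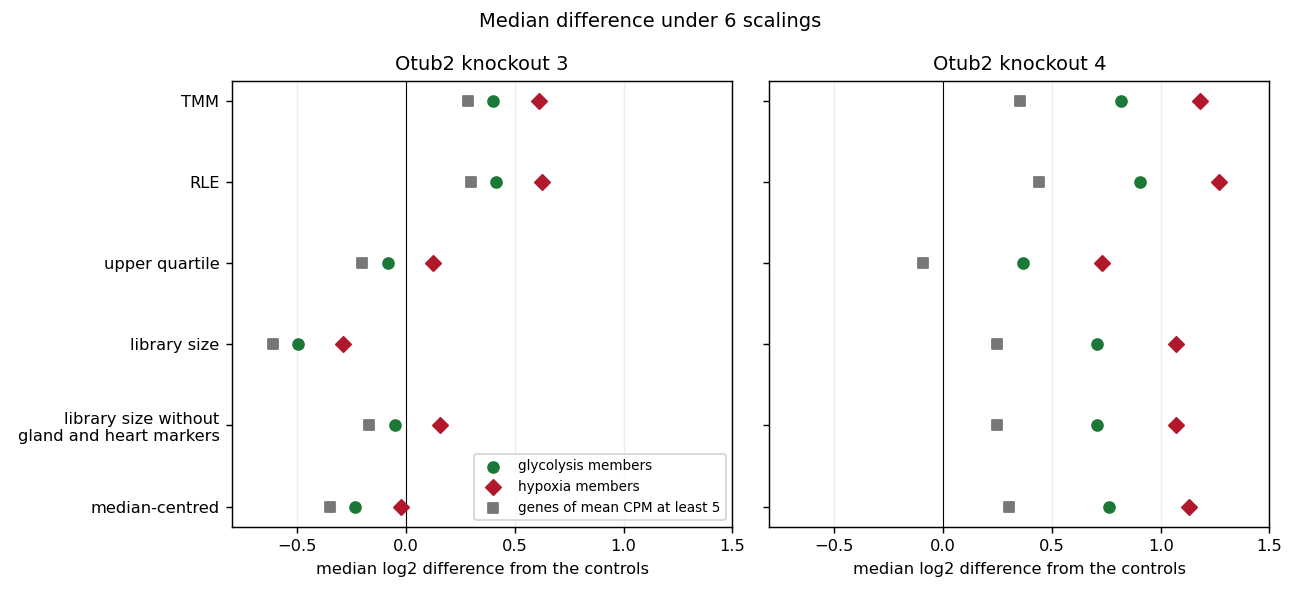
Median log2 difference from the controls under each of 6 scalings (rows), for library 3 (left) and library 4 (right). Circles are glycolysis members, diamonds hypoxia members and squares all genes of at least 5 CPM; in library 3 the symbols cross 0 between scalings, whereas in library 4 both member sets stay to the right of 0 and of the squares.

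HIF itself and its regulators, without the members Egln1 and Egln3, were then compared at the RNA level. Of 18 HIF pathway components tested, 7 lay above (38.9%) and 3 below (16.7%) both controls on the TMM scale, against 42.8% and 11.9% of genes of at least 5 CPM. Of the 18, 0 were called by edgeR, and an unadjusted p under 0.05 was reached by 2 higher and 2 lower genes. Their median log2 fold change was 0.08, and -0.39 with upper-quartile scaling. Both lay below the medians of genes of at least 5 CPM, 0.41 and -0.06. Hif1a, the main oxygen-regulated subunit, was at 274 and 423 CPM in control libraries and at 335 and 447 CPM in libraries 3 and 4, within the spread of the controls for library 3 (log2 change 0.17, SE 0.35). Epas1, which encodes HIF-2 alpha, was at 76.5 and 71.2 CPM against 118 and 36.6 CPM, in opposite directions in libraries 3 and 4. Arnt, the shared partner, was at 38.6 and 42.1 CPM against 65.8 and 59.7 CPM (log2 change 0.64, SE 0.24, edgeR adjusted p = 0.199). Vhl, the ubiquitin ligase subunit that recognises hydroxylated HIF, was at 22.4 and 23.3 CPM against 22.4 and 26.2 CPM. Os9, a lectin of endoplasmic reticulum quality control that has also been linked to HIF turnover, was at 69.3 and 70.7 CPM against 155 and 139 CPM (log2 change 1.07, SE 0.24, adjusted p = 0.166). HIF alpha subunits are regulated mainly at the protein level, which was not measured.

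Of 38 other hypoxia response genes tested, 19 lay above (50%) and 8 below (21.1%) both controls, against 42.8% and 11.9% of genes of at least 5 CPM, with a median log2 fold change of 0.47. Among those with the smallest unadjusted p was Gys1, glycogen synthase, at 30.6 and 31.9 CPM against 75.5 and 58.5 CPM. Gys1 was apart from the controls in both libraries and did not pass the edgeR test (adjusted p = 0.166).

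In 3 further lists the median difference was larger in library 3 than in library 4. Of 29 other glycolysis and gluconeogenesis genes, 18 lay above (62.1%) and 4 below (13.8%) both controls, against 42.8% and 11.9% of genes of at least 5 CPM, with a median difference of 1.32 in library 3 and 0.49 in library 4. Of 20 genes of the tricarboxylic acid cycle, 16 lay above (80%) and 0 below, with medians of 1.91 and 0.61. For 13 genes of pyruvate dehydrogenase and its regulators, 9 lay above (69.2%) and 0 below, with medians of 1.72 and 0.36, and Pdha1, the catalytic alpha subunit, was at 45.1 and 57.9 CPM against 339.8 and 96.6 CPM. Library 4 exceeded library 3 in 0 of the 20 cycle genes, against 31 of the 37 members. No gene of these 3 lists was called by edgeR. Most cardiac markers were also highest in library 3, and their part in these lists was not tested.

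**Figure D5:**
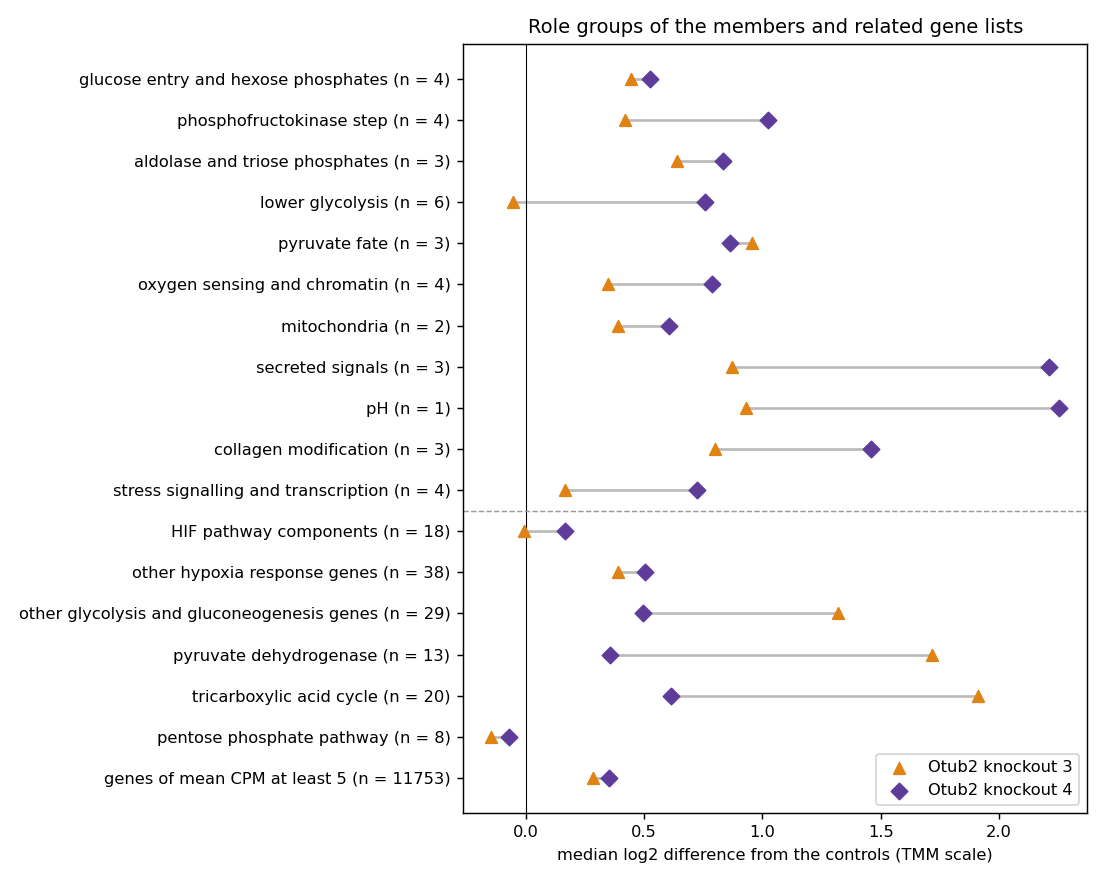
Median log2 difference from the controls on the TMM scale in library 3 (triangles) and library 4 (diamonds) for the role groups of the members (above the dashed line) and for related lists (below it), with the number of genes in each. Secreted, pH and collagen groups are farthest right in library 4, lower glycolysis is at -0.06 in library 3, and the tricarboxylic acid cycle and pyruvate dehydrogenase lists are farthest right in library 3.

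Several members have near-identical copies, and how multi-mapping reads were counted was not given in the sources used here. Of the 50-base stretches of the longest coding transcript, 82.5% were shared with other genes for Gapdh (222 genes), 72.2% for Eno1, 68.0% for Pgk1, 62.4% for Bnip3, 41.5% for Pgam1, 36.6% for Higd1a and 34.4% for Pkm, so levels of these genes are uncertain. Gapdh, usually among the most abundant transcripts, had 324 to 1556 counts. P4ha1, Pdk1, Egln1, Egln3, Slc16a3 and Pfkm had no shared stretch. On the TMM scale, 11 of the 13 members without any (84.6%) exceeded both controls and 0 lay below them, with a median log2 fold change of 1.03. Of the 24 with some, 14 (58.3%) exceeded both controls and 1 lay below them, with a median of 0.70. Among genes of at least 5 CPM 42.8% lay above and 11.9% below, with a median of 0.41. These counts were not taken under the other scalings.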

How the data were processed

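RNA-seq of 4 mouse libraries was analysed, 2 controls and 2 labelled Otub2 knockout. The deposited table holds a raw read count per gene and library, per the file headers. The authors also deposited FPKM, per the file headers, and each is proportional to the read count over gene length and column total (largest relative error 9.3e-15). GRCh38, a human build, HISAT2 and DESeq are named without versions in the submitters' processing notes, whereas the gene IDs are mouse (54409 of 54446 found in GENCODE M21, GRCm38). Counting tool, strand setting, annotation release and handling of multi-mapping reads were not given in the sources used here, so genes with copies or antisense partners are uncertain. Columns for the knockout are headed OE and were matched to the titles, which say KO, by the numbers 3 and 4. No column of per-sample values was left unused (0).

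Features without an Ensembl ID (14785; 2.84%, 2.82%, 1.29% and 0.914% of counts in Control 1, Control 2 and libraries 3 and 4) were left out. Counts were tested with edgeR 4.0.16 in R 4.3.3 (quasi-likelihood F-test, TMM, filterByExpr, Benjamini-Hochberg at 0.05 over all genes tested), after tests on simulated data. SEs come from the F statistic. Differences of single libraries use log2 CPM with a prior count of 2. FPKM served for isoenzyme shares within a library. DESeq2 1.42.0, limma 3.58.1 (voom), 5 other scalings, 3 other gene filters and leaving out each library were alternatives. Promoter windows are from RefSeq (GRCm38.p6); a stretch was printed only if at most 30 of its bases were annotated as exon.

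Members and lists were chosen with earlier results of these data known. All members could be named; of 7 other lists (150 symbols, 3 unmatched), up to 6 genes with the smallest unadjusted p, 5 HIF regulators and isoenzymes that complete a member's family. Some genes of these lists are not reported here.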

Additional observations from a re-analysis of the deposited data

How the results depend on the processing

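Of 516 member values recomputed under 14 alternatives, 433 kept their direction and side of the threshold, 47 passed it newly and 36, from 12 members, changed sign; the other 25 members kept their sign throughout. No paired analysis was possible because the groups share no replicate numbers (1 and 2 against 3 and 4). RLE size factors, limma voom and leaving out either control changed no count of calls from 0. Genes called higher and lower numbered 780 and 258 with DESeq2, 51 and 1892 with plain library size, and 6 and 3 without a low-count filter. Members called higher numbered 5 with DESeq2. Genes of the other lists called higher numbered 23 with DESeq2, and with plain library size 1 was higher and 4 lower. Leaving out 1 library in turn gave 0 to 5243 genes higher, 0 to 5096 lower, 0 to 28 members higher, and 0 to 69 genes of the other lists higher and 0 to 18 lower; every count above 0 arose without library 3 or without library 4.

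Members above both controls numbered 12 with upper-quartile scaling (5 below), 4 with plain library size, 12 with library size without gland and heart markers, 9 with median-centring and 13 when only genes of at least 5 CPM were fitted (2 below). Over genes of at least 5 CPM the shares above were 16%, 13.1%, 23.8% and 19.1% under the first 4 of these, with 30.8% below under upper-quartile scaling. Leaving out 1 library gave 1 to 8 below. No share over all genes was taken beside the counts of that setting or of the fit to genes of at least 5 CPM. The median log2 fold change of the members was 0.34, 0.39 and 0.47 with upper-quartile scaling, plain library size and genes of at least 5 CPM, and 0.43 to 0.92 when 1 library was left out. That of the glycolysis members was 0.24 and 0.28 with the first 2 of these, 0.41 with median-centring and 0.38 to 0.83 when 1 library was left out; that of the hypoxia members was 0.46 and 0.51 with the first 2. For library 3 the member median was -0.0483, -0.46, -0.0162 and -0.20 with upper-quartile scaling, plain library size, library size without gland and heart markers and median-centring, and for library 4 it was 0.44 with upper-quartile scaling. The cause of these shifts was not tested.

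Sign changes by setting were as follows. With upper-quartile scaling Hk1 was at -0.12, Hk2 -0.16, Aldoc -0.21, Pgam1 -0.0591, Eno1 -0.0761, Pkm -0.0949, Ldha -0.13 and Mxi1 -0.13. With plain library size Hk1 was at -0.13, Hk2 -0.17, Aldoc -0.0941 and Mxi1 -0.0848. Median-centring put Hk2 at -0.024, and genes of at least 5 CPM put Hk2 at -0.0125, Aldoc at -0.0847 and Ldha at -0.0049. Eno2 and Bhlhe40 were at 0.043 and 0.0036 with DESeq2, 0.042 and 0.0035 with RLE, 0.12 and 0.0814 without a filter, and 0.24 and 0.20 with unannotated features kept, where Ankrd37 was at 0.0737. Leaving out 1 library gave ranges of -0.11 to 0.92 for Pfkl, -0.26 to 0.65 for Aldoc, -0.0629 to 0.78 for Pgam1, -0.13 to 0.79 for Eno1, -0.58 to 0.39 for Eno2, -0.0662 to 0.73 for Pkm, -0.27 to 0.78 for Ldha, -0.75 to 0.23 for Ankrd37 and -0.41 to 0.25 for Bhlhe40.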

Other observations

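Beyond the collagen-modifying members, other enzymes that use oxygen and 2-oxoglutarate were compared. Of 17 collagen hydroxylases and related dioxygenases tested, 9 lay above (52.9%) and 1 below (5.88%) both controls on the TMM scale. The shares over genes of at least 5 CPM were 42.8% and 11.9%. The median log2 fold change of the 17 was 0.84, against 0.41 over genes of at least 5 CPM, and 0 were called by edgeR. Plod1 and Plod3, the lysyl hydroxylases beside Plod2, were at 14 and 10.1 CPM and at 20.8 and 20.1 CPM in control libraries, against 65.9 and 37.9 CPM and 54.7 and 51.0 CPM in libraries 3 and 4. P3h3, of the prolyl 3-hydroxylase family, was at 5.67 and 6.23 CPM against 13.8 and 16.1 CPM. The histone demethylases Kdm5c and Kdm6a were at 72.8 and 78.3 CPM against 124 and 154 CPM, and at 13.7 and 20.1 CPM against 43.4 and 33.2 CPM. In each of these 5 genes the groups did not overlap, as was the case upward for 42.8% of genes of at least 5 CPM.

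The pentose phosphate pathway, which branches from glucose 6-phosphate and supplies NADPH, was compared as well. Of 8 genes tested, 1 lay above (12.5%) and 3 below (37.5%) both controls, against 42.8% and 11.9% of genes of at least 5 CPM, with a median log2 fold change of 0.04, and -0.44 with upper-quartile scaling. G6pdx, its first enzyme, was at 195 and 198 CPM in control libraries and at 176 and 191 CPM in libraries 3 and 4. Pgd, the next dehydrogenase, was at 290.3 and 235 CPM against 202 and 220.5 CPM. Neither passed the edgeR test (adjusted p = 0.809 and 0.474).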
